A study of Mus musculus with 30 samples.

Results

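The 10 genes described here mark macrophages or encode complement C1q: *C1qa*, *C1qb*, *C1qc*, *Adgre1*, *Csf1r*, *Cd68*, *Mrc1*, *Lyz2*, *Gpnmb* and *Cd163*. They were chosen by symbol, and all 10 were found among the 54838 genes counted in kidney and the 55487 counted in gastrocnemius, a fast muscle of the calf. All 10 also passed the filter on low counts in both tissues, among 17120 and 15419 genes tested. The libraries were polyA RNA-seq of male C57BL/6J mice kept from 6 weeks of age at thermoneutrality (30 to 32 °C), a setting used with a western diet to induce fatty liver disease. The CD group ate the control diet, the WD group the western diet, and the WD + CHP group the western diet with cyclo(His-Pro) (CHP), a cyclic dipeptide gavaged in doses of 20 mg/kg from Week 7 to Week 24, 3 times each week. The CD and WD groups were gavaged with water, and all groups fasted for 3 h before euthanasia. There were 30 libraries, 5 for each tissue and group, and no source says which libraries of the 2 tissues came from the same mouse. The supplement of the study lists 24 mice aged 24 weeks, fewer than the libraries. If all libraries came from those mice, some mice gave both tissues.

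Macrophages live in nearly every organ, where they take up dying cells and debris and respond to injury. Their survival depends on CSF1R, the receptor for the growth factors CSF1 and IL-34. Unlike most complement proteins, which the liver secretes, the 3 chains of C1q are made mainly by macrophages and related myeloid cells, so their transcripts rise and fall with the number and the state of these cells. C1q opens the classical complement pathway by binding antibody or cell debris and activating the proteases C1r and C1s. In such bulk tissue, fewer macrophages and less of a transcript per macrophage cannot be told apart.

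Kidney libraries held 37189192 to 38211422 counts and gastrocnemius libraries 50319024 to 53282969, and levels are given as counts relative to the scaled library size (CPM). No library was a copy of another of its group. Frozen liver is named as the source of the RNA in the labels, whereas the methods of the study name kidney and gastrocnemius. All 10 markers of the proximal tubule passed the filter in kidney and 0 of 10 in gastrocnemius, and markers of fast muscle passed it in 4 of 10 and 10 of 10 cases. Albumin and 8 other hepatocyte transcripts summed to 82.7 CPM in CD replicate 1 and 78.5 CPM in WD replicate 3 of gastrocnemius, and to 3.84 to 19.3 CPM in the other 13 libraries of that tissue. In kidney, *Alb*, *Apoa1*, *Apoa2* and *Ahsg*, 4 transcripts of that list singled out after their values were seen, summed to 552 CPM in WD replicate 5, to 101 CPM in CD replicate 1 and to 12.2 to 37.8 CPM in the other 13 libraries. Results are therefore also given without each of these libraries where a call or a sign changed or a member's log2 difference moved by over 1.5 times.

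The chains of C1q are encoded side by side on the minus strand of chromosome 4 (GRCm38, GENCODE M21), *C1qb* at 136880129 to 136886187, *C1qc* at 136889804 to 136893065 and *C1qa* at 136895917 to 136898803. The stretches before the start sites of *C1qb* and *C1qc*, the 2 chains with a RefSeq entry here, are shown because the 3 chains are neighbours whose transcripts varied together, closely in gastrocnemius and less so for *C1qc* in kidney. They come from RefSeq (GRCm38.p6), are written 5′ to 3′ on the strand of the gene, and leave out bases inside the annotated genes. The *C1qb* stretch is chr4:136886201-136886450 and the *C1qc* stretch is chr4:136893066-136893164.
C1qb: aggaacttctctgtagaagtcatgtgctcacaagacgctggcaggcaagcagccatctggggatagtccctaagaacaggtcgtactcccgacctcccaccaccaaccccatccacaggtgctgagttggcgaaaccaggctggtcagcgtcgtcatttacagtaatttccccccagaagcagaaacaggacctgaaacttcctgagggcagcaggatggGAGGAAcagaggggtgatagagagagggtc
C1qc: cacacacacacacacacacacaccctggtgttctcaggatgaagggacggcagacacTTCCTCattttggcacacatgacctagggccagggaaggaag

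Capitals mark GAGGAA or its reverse complement TTCCTC, the letters at the centre of the sites bound by PU.1, the myeloid transcription factor encoded by *Spi1*. The match lies 25 bases before the RefSeq start of *C1qb* and, on the other strand, 188 bases before that of *C1qc*. Of the 7 members with an entry, 4 held GAGGAA on either strand within 250 bases before the start (*C1qb*, *C1qc*, *Cd68* and *Mrc1*), against 23.3% of all 32851 promoters. The longer GAGGAAGT, which contains the shorter motif, was found in *C1qc* alone of the 7 and in 2.44% of all promoters. Such a match describes the letters only.

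All 10 genes had counts in both tissues, which differed in their levels. Levels between genes were compared as CPM per kilobase of exon, the mean over all 15 libraries of a tissue. In kidney, *C1qb* was highest at 16.6 ± 1.88 (SD, n = 15) CPM per kb, followed by *C1qa* at 13.9 ± 1.51, *Lyz2* at 12.8 ± 2.38, *Csf1r* at 10.6 ± 1.26 and *C1qc* at 7.25 ± 0.719. *Lyz2* encodes lysozyme, a wall-degrading enzyme of myeloid cells. The ranges of neighbours among these 5 overlapped, yet within every kidney library *C1qb* (128% to 139% of the mean of the 3 chains) exceeded *C1qa* (106% to 117%). *Cd68*, a glycoprotein of macrophage lysosomes, stood at 4.0 ± 0.445 CPM per kb, and *Adgre1*, which encodes the surface marker F4/80, at 1.54 ± 0.262. *Mrc1*, the mannose receptor CD206, was at 0.543 ± 0.0945 CPM per kb, and the ranges of these 3 genes overlapped neither each other nor those above. At the bottom lay *Cd163*, the scavenger receptor for haptoglobin and haemoglobin, at 0.0787 ± 0.0168 CPM per kb, and *Gpnmb*, a lysosomal glycoprotein of lipid-laden macrophages, at 0.0647 ± 0.0214. These 2 genes had 8 to 22 and 4 to 25 counts per kidney library, so that their fold changes in kidney are imprecise.

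In gastrocnemius the order was different. *Lyz2* led at 23.7 ± 4.92 (SD, n = 15) CPM per kb, and its lowest library (14.6) was above the highest of *C1qa* (11.9). *C1qa* followed at 8.11 ± 2.07 CPM per kb, *C1qb* at 7.20 ± 1.87, *C1qc* at 4.34 ± 1.03 and *Csf1r* at 2.74 ± 0.646. *Cd163* stood next at 2.39 ± 0.671 CPM per kb, above *Cd68* at 1.98 ± 0.536, *Mrc1* at 1.58 ± 0.467, *Adgre1* at 1.04 ± 0.305 and *Gpnmb* at 0.742 ± 0.228. From *C1qa* downwards the range of each gene overlapped that of the next. With the longest transcript of each gene as its length, a choice made after the data were seen, *C1qc* came to 11.6 CPM per kb in kidney and 6.97 in gastrocnemius, and *Csf1r* to 13.0 in kidney, above *Lyz2* at 12.8. *Gpnmb* came to 0.114 CPM per kb in kidney, above *Cd163* at 0.0968, and to 1.31 in gastrocnemius, above *Adgre1*.

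**Figure D1:**
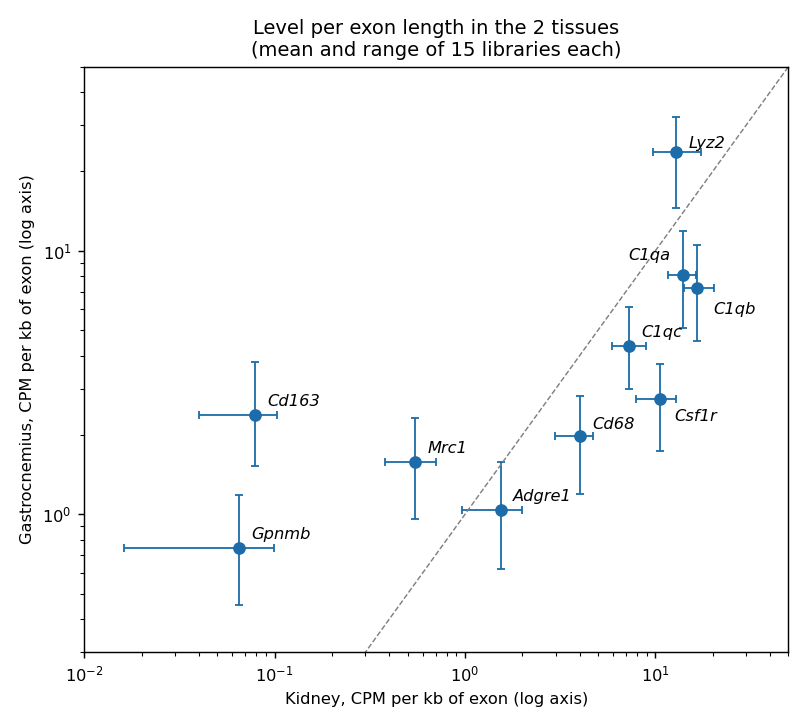
Level of each member in kidney (horizontal) and gastrocnemius (vertical) in CPM per kilobase of exon, both on log axes, with the mean (point) and the range of 15 libraries per tissue (bars) and the line of equal level (dashed). *Cd163*, *Gpnmb* and *Mrc1* lie far above the line (30.4, 11.5 and 2.91 times higher in gastrocnemius), and *Csf1r* lies farthest below it (3.87 times higher in kidney).

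*Cd163* was 30.4 times higher in gastrocnemius than in kidney, *Gpnmb* 11.5 times and *Mrc1* 2.91 times, whereas *Csf1r* was 3.87 times, *C1qb* 2.31 times and *Cd68* 2.02 times higher in kidney. For these 6 genes the ranges of the 15 kidney and 15 gastrocnemius libraries did not overlap. The same was true of 72.2% of the 13943 genes tested in both tissues, so that a difference in level between kidney and muscle was the usual case. The ranges of the other 4 genes overlapped (*Lyz2* 1.85 times higher in gastrocnemius, *C1qa* 1.71, *C1qc* 1.67 and *Adgre1* 1.48 times higher in kidney). Each tissue was scaled on its own and, per the labels, extracted with another kit, so these ratios are a description.

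Ratios within a library do not depend on that scaling. *Cd163* had a median of 38.3% of the mean level of the 3 C1q chains in gastrocnemius (24.3% to 48.5%, n = 15) and 0.661% in kidney (0.293% to 0.909%). *Gpnmb* had 10.3% (6.13% to 19.9%) and 0.543% (0.13% to 0.788%), and *Lyz2* had 356% (313% to 464%) and 94.6% (79.4% to 131%). *Csf1r* ran the other way, at 42.4% in gastrocnemius (30.4% to 58.1%) and 83.4% in kidney (67.8% to 111%). *Mrc1* had 23.7% (17.5% to 37.5%) in gastrocnemius and 4.22% (2.89% to 6.03%) in kidney, and *C1qb* itself had 110% (100% to 119%) and 132% (128% to 139%). For these 6 genes no library of one tissue reached the range of the other, as was the case relative to C1q for 48.7% of all genes tested in both tissues. *Adgre1* (15.4% against 12.1%) and *Cd68* (29.7% against 32.2%) had overlapping ranges in the 2 tissues. *Csf1r* overlaps *Hmgxb3* on the opposite strand, which had 897 to 1141 counts in kidney and 1294 to 1628 in gastrocnemius. As the strand setting of the counting is not given in the sources used here, reads of the shared stretch cannot be assigned to either gene. *Lyz2* has a near-identical copy, *Lyz1*, with 0 to 9 counts in kidney and 35 to 157 in gastrocnemius, against 474 to 839 and 978 to 2230 for *Lyz2*.

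The members also differed in how closely they varied together. After the group means were subtracted, the log2 CPM of the 3 C1q chains correlated across the 15 gastrocnemius libraries with Pearson's r of 0.933 to 0.946. All 45 pairs of members were positively correlated in that tissue, from 0.559 to 0.961 with a median of 0.809. *Csf1r* and *Mrc1* formed the closest pair (0.961). In kidney, *C1qa* and *C1qb* correlated at 0.934, *C1qb* and *C1qc* at 0.725 and *C1qa* and *C1qc* at 0.605, and the median over 45 pairs was 0.313 and the range was -0.549 to 0.934. Without *Gpnmb* and *Cd163*, whose kidney counts were low, the median of the remaining 28 pairs was 0.538. Points within a tissue share library depth and composition, and these values are given as a description.

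**Figure D2:**
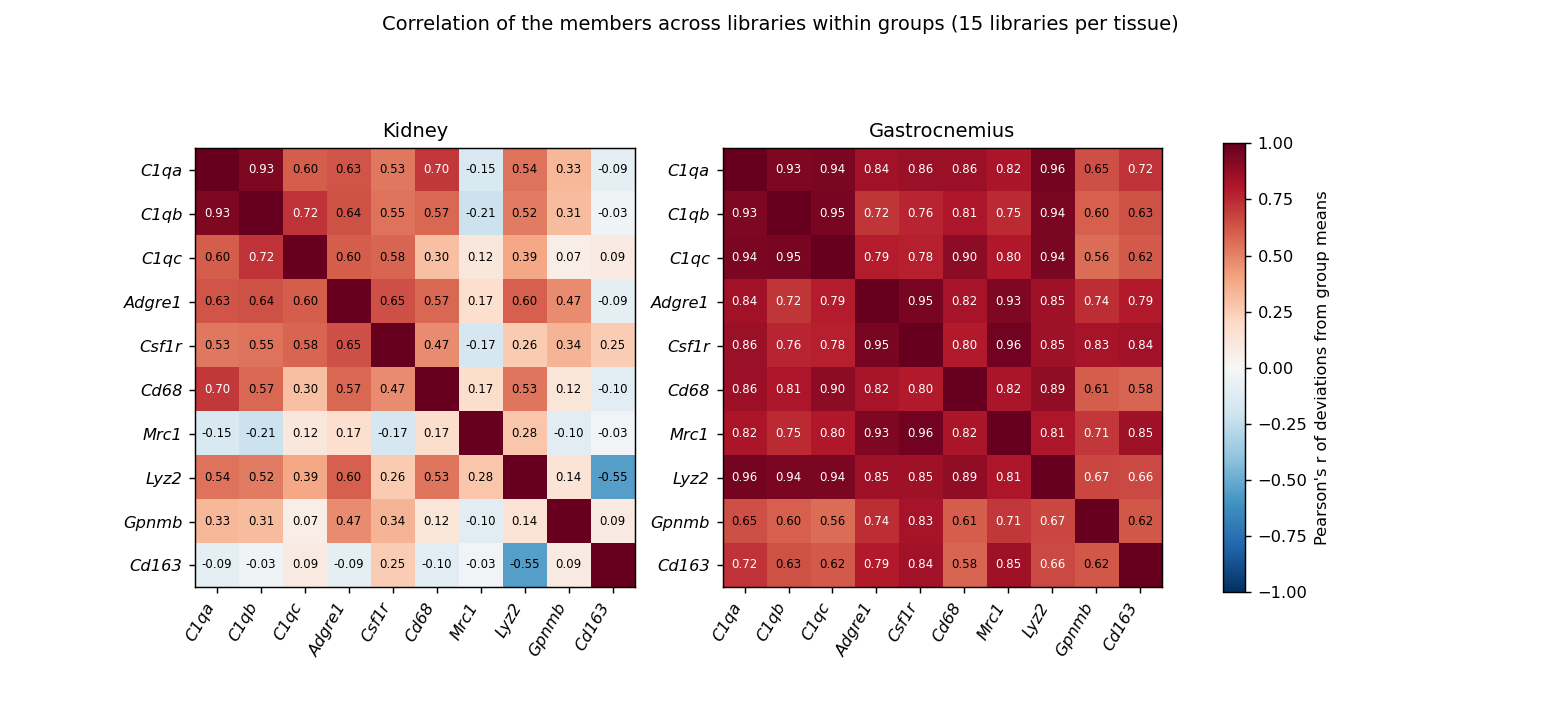
Pearson's r between members across 15 libraries per tissue after subtraction of group means from log2 CPM, in kidney (left) and gastrocnemius (right); red is positive, blue negative, and the diagonal is 1 by definition. Every pair is positive in gastrocnemius (median 0.809), and the kidney values are lower and mixed in sign (median 0.313).

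The joint variation in gastrocnemius can be read in single libraries. CD replicate 1 was the highest of its group for 9 of 10 members and WD + CHP replicate 2 for 9 of 10. WD replicate 4 was the lowest of its group for 9 of 10 members, WD + CHP replicate 4 for 8 and CD replicate 4 for 7. *C1qa* thus ranged from 5.28 to 9.71 CPM within CD and from 5.57 to 12.4 CPM within WD + CHP. In the same libraries the mean of the C1q chains correlated at 0.939 with 16 other macrophage transcripts, 0.799 with the mitochondrial share of counts (7.74% to 11.5%), 0.743 with fibroblast markers, 0.52 with adipocyte markers and -0.46 with markers of fast muscle (n = 15). In kidney it correlated at 0.867 with the macrophage transcripts and at 0.314 with the mitochondrial share. For the adipocyte markers, fits with their score as a covariate are given with the comparisons of gastrocnemius, and the part of the other measures in the differences between groups was not tested.

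The 5 genes most like the C1q mean across the 15 gastrocnemius libraries, of 10808 compared, were *Fcgr2b* (0.905), an inhibitory antibody receptor, *Anxa1* (0.896), which encodes annexin A1, *Cyth4* (0.888), *Cyba* (0.88), a subunit of the phagocyte oxidase, and *Ecm1* (0.871), an extracellular matrix protein. In kidney, of 12399 genes, they were *Cyp51* (0.88), an enzyme of cholesterol synthesis, *H2-Ab1* (0.871), an MHC class II chain, *Tfb1m* (0.846), *Mpeg1* (0.844), the pore-forming perforin-2 of macrophages, and *Themis2* (0.832). Of all genes compared, 0.379% exceeded 0.8 in gastrocnemius and 0.121% in kidney.

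WD vs. CD shows the response to the diet. In kidney, the transcripts of all 3 C1q chains were slightly more abundant in WD than in CD, *Csf1r* was slightly less abundant, and no member passed an adjusted p of 0.05. *C1qa* measured 14.5, 13.6, 12.8, 13.3 and 12.7 CPM in the CD libraries and 16.6, 17.0, 15.3, 14.1 and 14.7 CPM in WD. Only the WD library at 14.1 CPM fell within the CD range, and the mean was 13.4 ± 0.715 CPM in CD and 15.5 ± 1.24 CPM in WD (SD, n = 5), a difference of 0.21 ± 0.08 (SE) on the log2 scale (edgeR quasi-likelihood F test, adjusted p = 0.102). *C1qb* measured 17.2, 15.9, 16.0, 17.1 and 16.1 CPM in CD and 19.4, 21.7, 18.7, 17.9 and 18.2 CPM in WD.

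*C1qb* was the only one of 10 members without overlap between these groups, a pattern found upwards in 4.02% of all genes. Its log2 difference was 0.22 ± 0.08 (SE), with a 95% confidence interval of 0.05 to 0.39 and an adjusted p of 0.0899 by edgeR. *C1qc* measured 13.3, 11.4, 13.4, 14.8 and 13.2 CPM in CD and 15.2, 17.2, 15.1, 14.2 and 13.4 CPM in WD. The groups overlapped, and the log2 difference was 0.18 ± 0.08 (SE; adjusted p = 0.133). When only the CD and WD libraries were fitted, *C1qa* (adjusted p = 0.0456) and *C1qb* (0.0252) passed the threshold in edgeR. *C1qb* also passed it when WD + CHP replicate 5, which enters this comparison only through the shared fit, was left out (adjusted p = 0.0482), and over all 15 fits with a library left out its adjusted p was 0.0482 to 0.181. Over 11 other tools and settings, the log2 difference ran from 0.142 to 0.217 in *C1qa*, from 0.154 to 0.225 in *C1qb* and from 0.122 to 0.187 in *C1qc*. The adjusted p by the test of each setting reached 0.317, 0.253 and 0.377. Length and GC correction took the median of the members from 0.149 to 0.111.

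*Csf1r* measured 59.6, 66.2, 72.3, 73.9 and 63.0 CPM in CD and 60.4, 62.9, 58.1, 48.8 and 60.6 CPM in WD. The mean was 67.0 ± 6.06 (SD, n = 5) against 58.2 ± 5.52 CPM, a log2 difference of -0.20 ± 0.09 (SE; interval -0.39 to -0.02; edgeR adjusted p = 0.158). Relative to the C1q mean of the same library, *Csf1r* had 84.6% to 111% in CD and 67.8% to 83.4% in WD, without overlap. The levels of 20.4% of all genes relative to C1q were lower in this way. The overlapping *Hmgxb3* differed by -0.10 ± 0.04 (SE; adjusted p = 0.185).

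The other 6 members overlapped between the groups in kidney. *Cd68* (4.68 ± 0.586 against 5.28 ± 0.355 CPM, SD, n = 5), *Mrc1* (3.30 ± 0.662 against 3.81 ± 0.535) and *Lyz2* (16.4 ± 3.18 against 17.9 ± 3.54) had log2 differences of 0.17, 0.21 and 0.13. With a library left out, these ran from 0.105 to 0.222, from 0.116 to 0.302 and from 0.0263 to 0.215. *Adgre1* was at 5.13 ± 0.915 and 5.11 ± 0.859 CPM. *Gpnmb* (0.409 ± 0.0841 and 0.411 ± 0.195 CPM) and *Cd163* (0.476 ± 0.0701 and 0.406 ± 0.0934 CPM) were near the limit of counting, and the intervals of their log2 differences ran from -0.69 to 0.71 and from -0.69 to 0.23. Without CD replicate 1 or WD replicate 5, the kidney libraries with hepatocyte transcripts, 0 members were called (lowest adjusted p 0.0889 and 0.0754). The differences of 7 members, the C1q chains among them, then moved by less than 1.5 times. Without CD replicate 1, *Adgre1* turned to 0.09, *Lyz2* was 0.215 and *Gpnmb* 0.02, and without WD replicate 5 *Adgre1* was -0.04 and *Gpnmb* turned to -0.21.

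Counted over the list, 0 of 10 members were called in kidney WD vs. CD at an adjusted p of 0.05, against 9.65% of all genes tested, and DESeq2 and limma-voom also called 0. At an unadjusted p of 0.05, 3 members were higher (the C1q chains) and 1 lower (*Csf1r*), against 12.4% and 12.5% of all genes. The median log2 difference of the members was 0.15, and that of all genes was 0.0015. T cell and fibroblast transcripts moved in the same comparison. Of 7 T cell markers tested, all 7 were on the positive side and 2 passed (*Lck*, a T cell kinase, 0.66 ± 0.18, SE, and *Cd8a*, 0.84 ± 0.23). Of 8 fibroblast markers the collagens *Col1a1* (0.73 ± 0.16) and *Col1a2* (0.38 ± 0.10) passed. Their part in the values of the members was not tested.

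**Figure D3:**
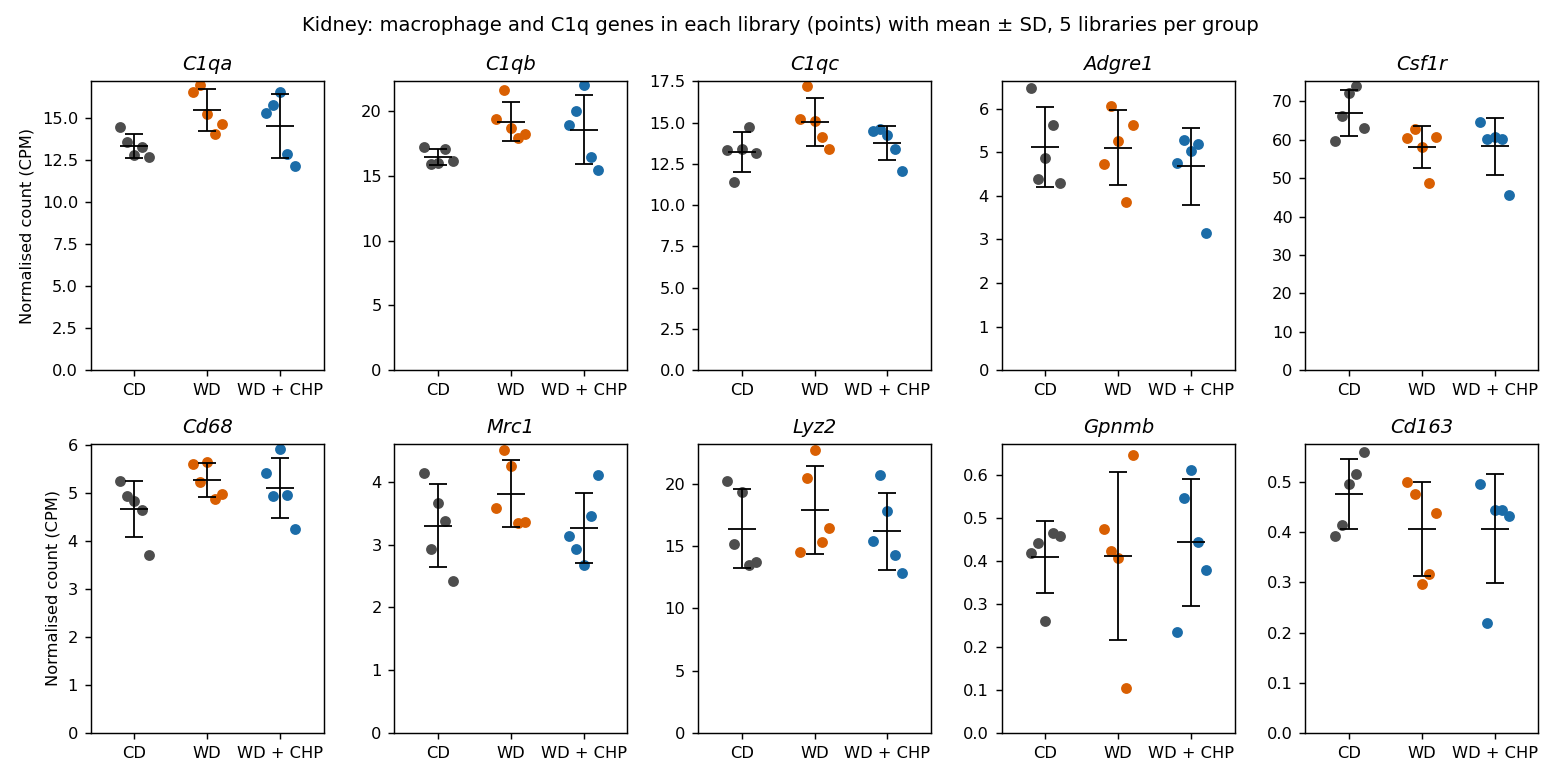
Normalised counts (CPM, linear axes from 0) of the 10 members in every kidney library, with the mean ± SD of 5 libraries in CD, WD and WD + CHP. *C1qb* separates CD (15.9 to 17.2 CPM) from WD (17.9 to 21.7 CPM), the other panels overlap, and WD + CHP replicate 5 gives the low points of *Adgre1* (3.14 CPM) and *Csf1r* (45.5 CPM).

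In gastrocnemius, all 10 members had a higher estimate in WD than in CD, as had 50.4% of all genes, with the largest differences in *Cd68* and the C1q chains, and again no member passed an adjusted p of 0.05. *Cd68* measured 2.69, 2.50, 2.01, 1.51 and 1.52 CPM in CD and 3.26, 3.15, 3.29, 2.38 and 3.22 CPM in WD. WD replicates 1, 2, 3 and 5 were above all CD libraries, and replicate 4 was not. The mean was 2.04 ± 0.545 (SD, n = 5) against 3.06 ± 0.382 CPM, a log2 difference of 0.58 ± 0.19 (SE; interval 0.18 to 0.98; edgeR adjusted p = 0.0693).

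*C1qa* measured 9.71, 7.49, 7.17, 5.82 and 5.28 CPM in CD and 10.5, 11.4, 9.47, 7.42 and 8.90 CPM in WD, and its log2 difference was 0.43 ± 0.19 (SE; edgeR adjusted p = 0.191). *C1qb* measured 9.44, 6.15, 6.56, 4.97 and 5.82 CPM in CD and 8.85, 10.0, 9.70, 7.22 and 8.82 CPM in WD, with a log2 difference of 0.44 ± 0.20 (SE; adjusted p = 0.187). In *C1qc* (7.30 ± 1.79 against 9.37 ± 0.89 CPM, SD, n = 5) the difference was 0.36 ± 0.19 (SE; adjusted p = 0.25). For each chain, CD replicate 1 reached into the WD range and the other 4 CD libraries lay close to or below the lowest WD library.

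The remaining members differed less between WD and CD in gastrocnemius. *Adgre1* and *Cd163* had log2 differences of 0.26 and 0.25, *Csf1r* 0.15, *Mrc1* 0.14, *Lyz2* 0.05 and *Gpnmb* 0.03. The sign of *Gpnmb* turned with limma-voom, and those of *Gpnmb* and *Lyz2* turned when some libraries were left out. Relative to the C1q mean of the same library, *Lyz2* had 397% to 464% in CD, 316% to 364% in WD and 313% to 356% in WD + CHP. CD did not overlap WD in this ratio, which was the case downwards for 4.88% of all genes.

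**Figure D4:**
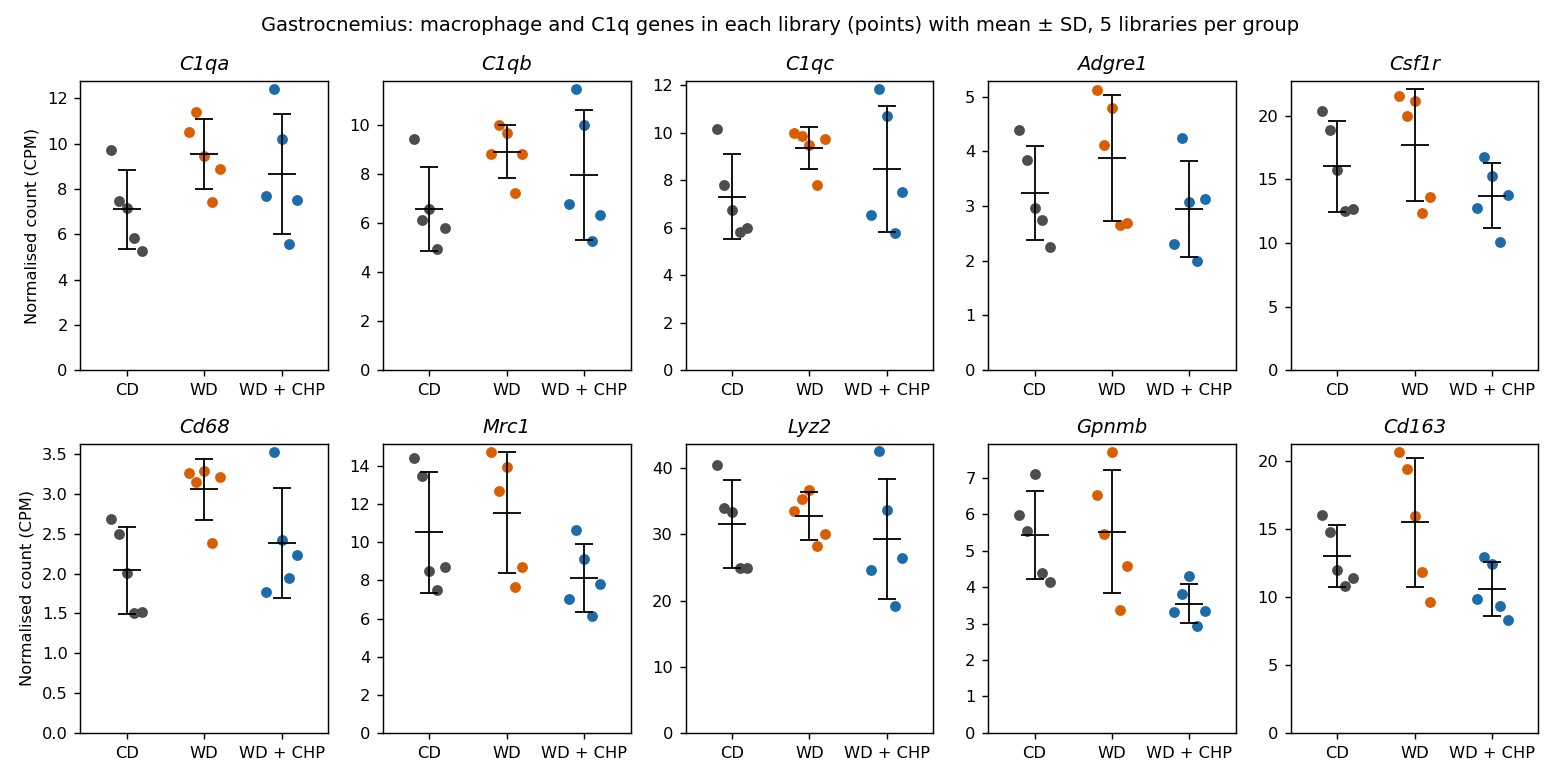
Normalised counts (CPM, linear axes from 0) of the 10 members in every gastrocnemius library, with the mean ± SD of 5 libraries in CD, WD and WD + CHP. *Cd68* is higher in 4 of 5 WD libraries (3.15 to 3.29 CPM) than in any CD library (1.51 to 2.69 CPM), and *Gpnmb* is lowest in WD + CHP (2.94 to 4.31 CPM).

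In gastrocnemius WD vs. CD, 0 of 10 members were called, against 8.63% of all genes tested. At an unadjusted p of 0.05, 3 were higher (*C1qa*, *C1qb* and *Cd68*) against 12.1% of all genes, and 0 were lower. DESeq2 called *Cd68* (adjusted p = 0.0425) and limma-voom called 0. *Cd68* also passed in edgeR without CD replicate 1 (0.70, adjusted p = 0.0417), a library with hepatocyte transcripts, and without WD + CHP replicate 2 (adjusted p = 0.0367), and did not pass in the other 13 fits with a library left out (adjusted p up to 0.156). Without CD replicate 1, the differences of *Csf1r* (0.25), *Mrc1* (0.28), *Adgre1* (0.39), *Lyz2* (0.16) and *Gpnmb* (0.06) were over 1.5 times those of the fit with all libraries. Without WD replicate 3, the other library with hepatocyte transcripts, 9 of 10 estimates stayed positive and 0 members were called, with a lowest adjusted p of 0.125. The differences were then 0.07 for *Csf1r*, 0.06 for *Mrc1*, 0.17 for *Adgre1*, 0.01 for *Lyz2* and -0.12 for *Gpnmb*. The median log2 difference of the members was 0.26, against 0.0013 for all genes. Adipocyte markers rose in the same comparison, with 6 of 10 called. Their summed level was 425 to 551 CPM in CD, 512 to 689 CPM in WD and 392 to 657 CPM in WD + CHP, and among them *Lep*, which encodes leptin, differed by 3.96 ± 0.43 (SE, log2). With an adipocyte score as a covariate, which the groups nearly fix, all 10 members turned negative and 0 were called. The part of these markers in the macrophage values cannot be told apart from the group.

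WD + CHP vs. WD shows the response to CHP on the diet. In gastrocnemius, all 10 members had a lower estimate in WD + CHP, as had 54.1% of all genes, most of all *Gpnmb*, *Cd163* and *Mrc1*, and no member passed an adjusted p of 0.05. *Gpnmb* measured 6.54, 5.45, 7.69, 3.36 and 4.58 CPM in WD and 3.31, 3.81, 4.31, 2.94 and 3.34 CPM in WD + CHP. All WD + CHP libraries lay below 4 of the 5 WD libraries, and WD replicate 4 was among them. The mean was 5.52 ± 1.68 (SD, n = 5) against 3.54 ± 0.529 CPM, a log2 difference of -0.64 ± 0.20 (SE; interval -1.05 to -0.23; edgeR adjusted p = 0.179).

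*Cd163* measured 20.7, 19.4, 16.0, 11.9 and 9.61 CPM in WD and 9.87, 13.0, 12.4, 9.34 and 8.34 CPM in WD + CHP. The lower WD libraries overlapped WD + CHP, and the log2 difference was -0.55 ± 0.19 (SE; interval -0.95 to -0.15; edgeR adjusted p = 0.233). *Mrc1* measured 14.7, 12.7, 13.9, 7.68 and 8.73 CPM in WD and 7.02, 10.6, 9.12, 6.12 and 7.81 CPM in WD + CHP, a log2 difference of -0.51 ± 0.21 (SE; adjusted p = 0.34). In both genes, WD replicates 1 to 3 were above every WD + CHP library and WD replicates 4 and 5 were not.

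The C1q chains differed less in this comparison. *C1qa* had 8.67 ± 2.66 (SD, n = 5) CPM in WD + CHP against 9.54 ± 1.53 in WD, and the log2 differences were -0.14 ± 0.19 (SE) for *C1qa*, -0.16 ± 0.19 for *C1qb* and -0.14 ± 0.18 for *C1qc*. The interval of *C1qa*, -0.54 to 0.27, included 0. The values of the chains moved with single treated libraries, being -0.30, -0.33 and -0.29 without WD + CHP replicate 2 and -0.01, -0.04 and -0.03 without WD + CHP replicate 4. *Adgre1* (-0.39), *Csf1r* (-0.37), *Cd68* (-0.36) and *Lyz2* (-0.16) lay between the chains and *Gpnmb*. With a library left out, they ran from -0.561 to -0.273, from -0.475 to -0.276, from -0.546 to -0.272 and from -0.335 to -0.0427. Of the 10 members 0 were called, as were 0.409% of all genes. At an unadjusted p of 0.05, 3 members were lower against 7.15% of all genes, and 0 were higher. DESeq2 and limma-voom called 0. Without WD replicate 3 all 10 estimates stayed negative (-0.54 to -0.12), as they did without CD replicate 1. Of the 10 adipocyte markers 4 fell in this comparison, among them *Adipoq*, which encodes adiponectin (-1.15 ± 0.17, SE). With an adipocyte score as a covariate, 8 of the 10 members turned positive and *Gpnmb* and *Cd163* stayed negative. As the score separated WD (0.575 to 0.71) from CD (-1 to -0.308) and from WD + CHP (-0.475 to 0.273), the score and the group cannot be told apart.

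In kidney, no member passed in WD + CHP vs. WD, and the estimates ran from -0.22 to 0.10 on the log2 scale. *C1qa* measured 15.3, 15.8, 16.6, 12.9 and 12.2 CPM in WD + CHP, *C1qb* 18.9, 19.96, 22.0, 16.5 and 15.5 CPM, and *C1qc* 14.5, 14.6, 14.3, 13.4 and 12.1 CPM. Replicates 4 and 5 of *C1qa* and *C1qb* were below all WD libraries and the other 3 were within or above the WD range. The log2 differences of the chains were -0.09 ± 0.08 (SE), -0.05 ± 0.08 and -0.13 ± 0.08. With a library left out, they ran from -0.14 to -0.03, from -0.11 to 0.01 and from -0.16 to -0.07, and length and GC correction took that of *C1qa* to -0.03 and the median of the members from -0.07 to -0.02. *Mrc1* had the lowest estimate of the list at -0.22 ± 0.15 (SE), and 3 of the 5 treated libraries lay below the WD range, and *Csf1r* differed by 0.0019 ± 0.09. *Lyz2* (-0.14 ± 0.15), *Adgre1* (-0.13 ± 0.15), *Cd68* (-0.05 ± 0.10), *Cd163* (0.0037 ± 0.22) and *Gpnmb* (0.10 ± 0.33) made up the rest. Without WD replicate 5, *Gpnmb* was 0.33, *Cd163* 0.04 and *Csf1r* 0.02, and without CD replicate 1 *Cd163* was 0.0076 and *Csf1r* 0.0054, with 0 members called in either case. Of the 10 members 0 were called by edgeR, DESeq2 or limma-voom, against 0.105% of all genes. At an unadjusted p of 0.05 the count was also 0, against 11.4% of all genes. The interval of *C1qb*, -0.215 to 0.12, shows the size of difference left possible for the most abundant chain.

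**Figure D5:**
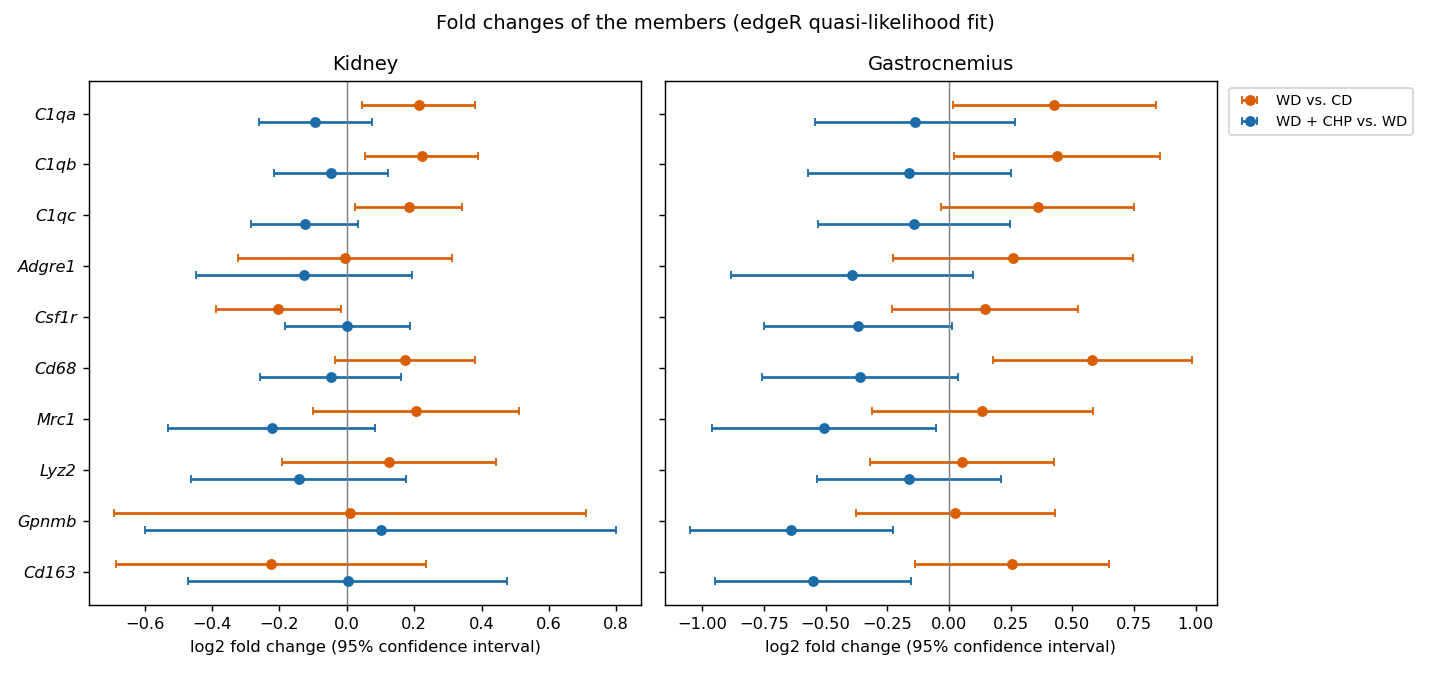
Log2 fold change of each member with its 95% confidence interval in the edgeR fit, WD vs. CD (orange) and WD + CHP vs. WD (blue), in kidney (left) and gastrocnemius (right). In gastrocnemius all orange points are above 0 (0.03 to 0.58) and all blue points below 0 (-0.64 to -0.14), the kidney C1q chains lie between 0.18 and 0.22 in WD vs. CD, and no member passed an adjusted p of 0.05.

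Both comparisons share the WD libraries, so that a high or low WD group moves them in opposite directions. As the members varied together in gastrocnemius, their signs there are not separate observations. WD + CHP vs. CD, which uses the WD libraries only through the shared fit, gave 4 positive and 6 negative estimates in gastrocnemius, where 52.7% of all genes were negative. *Gpnmb* was lower in WD + CHP than in CD, where it measured 5.98, 5.54, 7.11, 4.38 and 4.13 CPM, and 4 of 5 WD + CHP libraries lay below every CD library. The log2 difference was -0.61 ± 0.20 (SE; edgeR adjusted p = 0.0592), and 0 of 10 members were called against 9.4% of all genes. DESeq2 called *Gpnmb* (adjusted p = 0.0301), and limma-voom called 0. It passed in edgeR when only CD and WD + CHP were fitted (adjusted p = 0.0242) and without CD replicate 5 (0.0471), WD replicate 3 (0.0408) or WD replicate 4 (0.0301). It did not pass in the other 12 fits with a library left out, where the adjusted p reached 0.151, and without CD replicate 1 the difference was -0.58 (adjusted p = 0.106). *C1qa* (0.29 ± 0.19, and 0.13 to 0.43 with a library left out) and *Cd163* (-0.30 ± 0.19) did not pass either. When the adipocyte score entered the fit, the C1q chains and *Cd68* turned negative (*C1qa* to -0.06), and the median of the members went from -0.12 to -0.485. Without CD replicate 1, 5 members were positive and 5 negative. The differences of *C1qb* and *C1qc* were then 0.44 and 0.36, against 0.28 and 0.22 with all libraries, and that of *Cd68* was 0.34 against 0.22. Nearer to 0 were *Csf1r* (-0.12 against -0.22), *Mrc1* (-0.23 against -0.37), *Lyz2* (-0.0020 against -0.11) and *Adgre1*, which turned from -0.13 to 0.0011. At an unadjusted p of 0.05 *Gpnmb* alone was lower, against 13.5% of all genes, and 0 members were higher.

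In kidney WD + CHP vs. CD, 0 members were called against 12.1% of all genes, and DESeq2 and limma-voom called 0. *C1qb* (0.18 ± 0.08, SE) and *Csf1r* (-0.20 ± 0.09) passed an unadjusted p of 0.05, as did 13.7% of all genes upwards and 13.7% downwards, with edgeR adjusted p of 0.167 and 0.147. *C1qa* (0.12 ± 0.08), *C1qc* (0.06 ± 0.08), *Cd68* (0.12 ± 0.10) and *Gpnmb* (0.11 ± 0.33) had positive estimates, and *Cd163* (-0.22 ± 0.22), *Adgre1* (-0.13 ± 0.15), *Mrc1* (-0.02 ± 0.15) and *Lyz2* (-0.02 ± 0.15) negative ones. Without CD replicate 1, *Mrc1* and *Lyz2* turned to 0.08 and *Adgre1* was -0.03, and without WD replicate 5 *Mrc1* was -0.0079 and *Lyz2* -0.0091, with 0 members called in either case. Without WD + CHP replicate 5, *C1qb* passed the adjusted threshold (0.24, adjusted p = 0.0453), and over all 15 fits with a library left out its adjusted p was 0.0453 to 0.383.

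The effects of diet and of CHP were also compared between the tissues in 1 fit of all 30 libraries over 13943 genes. This fit treated all libraries as separate mice, although some mice may have given both tissues. Of the 10 members 0 differed between kidney and gastrocnemius in the effect of WD, against 6.08% of all genes, and 0 in the effect of CHP, against 0.667%. The counts at an unadjusted p of 0.05 were 0 in both, and limma-voom called 0. The lowest p-values were those of *Cd68* for WD (-0.40 ± 0.22, SE, kidney minus gastrocnemius, adjusted p = 0.31) and of *Gpnmb* for CHP (0.72 ± 0.41, adjusted p = 0.448).

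Genes that act with the members were followed in the same fits, in which 9.65% of all genes passed in kidney and 8.63% in gastrocnemius in WD vs. CD, and 0.105% and 0.409% in WD + CHP vs. WD. In WD vs. CD, 1 call in a list of 9 or 10 genes is close to these shares. C1r and C1s, the proteases that C1q activates, were looked at after their values had been seen. In kidney, *C1s1* differed by 0.37 ± 0.11 (SE, log2) in WD vs. CD (adjusted p = 0.0524) and *C1ra* by 0.21 ± 0.09 (adjusted p = 0.139), and in WD + CHP vs. WD *C1ra* differed by -0.34 ± 0.09 (adjusted p = 0.135). Both have near-identical copies, and their counts are uncertain to that extent. Of 12 downstream components of the classical and terminal pathway tested in kidney 0 passed in either comparison. In WD vs. CD, 8 of their estimates were positive and 4 negative, among the latter *C4b*, which encodes complement C4 (-0.91 ± 0.29, SE, edgeR adjusted p = 0.0574). Of 9 tested in gastrocnemius, *C4b* ran the other way and rose in WD from 16.0 ± 5.01 to 30.6 ± 6.63 CPM (SD, n = 5; 0.94 ± 0.21, SE, adjusted p = 0.0113). It was at 18.0 ± 4.78 CPM in WD + CHP (-0.77 ± 0.21 vs. WD, adjusted p = 0.144). *C4a*, its near-identical copy, had 7 to 18 counts there.

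Of the regulators of complement, 3 of 12 passed in kidney WD vs. CD. *Clu*, the inhibitor clusterin, rose (0.23 ± 0.06, SE), and *Cfi*, the protease factor I that inactivates C3b, and *Cfd*, the factor D that starts the alternative pathway, fell (*Cfi* -1.06 ± 0.28 and *Cfd* -2.47 ± 0.68 on the log2 scale). *Cfd* was low and scattered in kidney, at 1.89 ± 1.4 CPM (SD, n = 5) in CD and 0.335 ± 0.352 CPM in WD. In gastrocnemius, 2 of 10 passed. *Cfd* fell by 1.60 on the log2 scale, from 37.4 ± 12.7 to 12.4 ± 3.66 CPM (SD, n = 5), and *Cd55*, a membrane inhibitor of complement, fell by 0.31. Of 9 complement receptors 1 passed in each tissue. *Lrp1*, a receptor for cell debris, rose in kidney (0.39 ± 0.11, SE, adjusted p = 0.037), and *Itgax*, the CD11c chain of a C3 receptor, rose in gastrocnemius (0.96 ± 0.26, adjusted p = 0.0283). No regulator or receptor passed in WD + CHP vs. WD in either tissue.

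Among 10 ligands and transcription factors of the CSF1R axis, the ligands *Csf1* and *Il34* and the factor *Spi1* passed no test. *Cebpa*, a factor of both myeloid cells and adipocytes, rose in gastrocnemius of WD (0.49 ± 0.13, SE, adjusted p = 0.029) and fell in WD + CHP vs. WD (-0.68 ± 0.13, adjusted p = 0.0304). Of 16 further macrophage transcripts tested in each tissue, 0 passed in either comparison. Their estimates were positive for 15 in gastrocnemius WD vs. CD (median 0.28) and negative for 16 in WD + CHP vs. WD (median -0.25), where 50.4% of all genes were positive and 54.1% negative. In kidney they were positive for 12 in WD vs. CD (median 0.18) and negative for 13 in WD + CHP vs. WD (median -0.10), where these shares were 50.4% and 52.4%. Both comparisons share the WD libraries. As a list these transcripts followed the C1q mean across libraries (r of 0.939 in gastrocnemius and 0.867 in kidney), and their signs are not separate observations.

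Markers of subsets gave some calls. Of 13 genes of lipid-associated macrophages tested in gastrocnemius, 3 rose in WD, namely *Mmp12*, a macrophage elastase (3.70 ± 0.49, SE, from 0.058 to 0.785 CPM), *Lgals3*, which encodes galectin-3 (0.80 ± 0.20), and *Cd36*, a fatty acid transporter that muscle also expresses (0.64 ± 0.10). *Mmp12* fell in WD + CHP vs. WD (-2.26 ± 0.42, adjusted p = 0.025), to 0.162 CPM. It passed the filter on low counts through WD, where it was high, with 0.0204 to 0.0974 CPM in CD and 0.0382 to 0.305 CPM in WD + CHP. Both of its differences rest on the WD group and are given as a description. Of 13 genes of that list tested in kidney, 10 estimates were positive and 3 negative in WD vs. CD. *Cd63* (0.21 ± 0.04) and *Ctsl* (0.17 ± 0.05), both of lysosomes, rose and *Lpl*, which encodes lipoprotein lipase, fell by 1.27 on the log2 scale. These 3 genes stood at 464, 292 and 765 CPM in kidney of CD, against 4.68 CPM of *Cd68*, and their cells of origin were not tested. Of 9 resident macrophage genes tested in kidney, 5 estimates were positive and 4 negative in WD vs. CD. *Siglec1*, which encodes CD169 (0.75 ± 0.22), and *Gas6*, a ligand of the receptor MERTK (0.36 ± 0.06), rose there. Of 12 tested in gastrocnemius, 9 were positive and 3 negative, and *Gas6* fell by 0.21. *Gas6* stood at 305 CPM in kidney of CD, against 5.13 CPM of *Adgre1*, and its cells of origin were not tested. Monocyte and neutrophil markers gave 0 calls in either tissue and comparison, with 6 and 3 tested in kidney and 4 and 1 in gastrocnemius.

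Markers of other cells were counted in the same way. In kidney WD vs. CD, 1 of 7 dendritic cell markers fell (*Cd209a*, by 0.53 on the log2 scale), 1 of 8 endothelial markers rose (*Eng*, 0.25 ± 0.08, SE) and 1 of 7 adipocyte markers fell (*Lipe*, by 0.37). Of 4 genes of the muscle list tested in kidney, *Pvalb* rose (0.51 ± 0.07). It held 16.5 CPM in CD, where that list summed to 18.0 to 19.8 CPM, and its cells of origin in kidney were not tested. Of 10 markers of the proximal tubule, 3 rose and 3 fell, among the former *Miox* (0.36 ± 0.04) and *Slc5a2* (0.40 ± 0.08). Of 9 hepatocyte markers there, several of which the kidney also expresses, 2 rose (*Ttr*, 0.85 ± 0.19, and *Serpina1a*, 0.87 ± 0.23) and 2 fell, among them *Cyp2e1* (by 0.32). The estimates of *Alb* (2.00 ± 0.91), *Apoa1* (2.25 ± 1.12) and *Ahsg* (2.28 ± 1.31) were larger and did not pass, and in WD + CHP vs. WD those of *Alb* and *Apoa1* were -2.31 ± 0.92 and -2.97 ± 1.19, and that of *Ahsg* was -3.68, with 0 of the 9 past the threshold. WD replicate 5 held 424 CPM of *Alb*, and the other 4 WD libraries 15.1 to 21.0 CPM. In gastrocnemius WD vs. CD, 1 of 3 dendritic cell markers rose (*Zbtb46*, 0.46 ± 0.09), 2 of 10 markers of fast muscle fell (*Ckm* by 0.26 and *Acta1* by 0.22), 1 of 6 hepatocyte markers fell (*Cyp2e1*, by 1.10), and 0 of 8 fibroblast and 0 of 8 endothelial markers passed. Besides *Lep*, the adipocyte markers *Cidec* (1.38 ± 0.18) and *Cidea* (2.12 ± 0.31) led the rise, and *Cidec* (-1.31 ± 0.18) and *Plin1* (-0.98 ± 0.15) fell with *Adipoq* in WD + CHP vs. WD. No T cell marker passed the filter in gastrocnemius. In WD + CHP vs. WD, 0 of the markers described here passed in kidney.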

How the data were processed

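The authors enriched RNA for polyA, cleaned the reads with SOAPnuke and, per the labels, aligned them with STAR 2.7.3a to GRCm38 (mm10). They deposited raw counts of reads per gene, not normalised, in a table per tissue. The counting tool, annotation and strand setting are not given in the sources used here, which bears on overlapping and near-identical genes. All columns were matched to samples by label (0 left over). Everything else was computed here with R 4.3.3, edgeR 4.0.16, limma 3.58.1 and DESeq2 1.42.0. In each tissue, genes were kept by filterByExpr (minimum count 10), scaled by TMM and fitted for the 3 groups together with edgeR's quasi-likelihood F test, two-sided, and p-values were adjusted after Benjamini and Hochberg over every gene kept (threshold 0.05). CPM use TMM-scaled library sizes, and correlations used log2 CPM with a prior count of 2. CPM per kb divide by the length of all exons (GENCODE M21). Motifs were searched in RefSeq promoters. Counts from total sizes of 37189192 to 53282969 limit the low genes. Per the methods of the study, RNA of single mice was sequenced, and a library was taken as 1 mouse.

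The members, lists and alternatives were chosen with earlier results of these data known. All members are named in every comparison of groups, as are up to 3 genes per list with the smallest adjusted p past 0.05 and the 5 genes per tissue most correlated with C1q, at a mean log2 CPM of at least 1. Not every such gene of the 18 lists is given, as the lists for tubule, muscle, endothelium, hepatocytes and dendritic cells served as checks, and some items are not reported here. The fit was tested on simulated data. Alternatives were other tools, scalings, filters and thresholds, the 2 groups alone, length and GC correction, the replicate block, an adipocyte covariate, each library left out and, added later, transcript length. Liver libraries were not analysed here.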

Additional observations from a re-analysis of the deposited data

Results flagged for a closer look

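Single libraries stood apart from the other 4 of their group in 6 of the 60 groups of member values. Chance alone flags about 1 in 20 separate groups, but these groups share their libraries, so the rates cannot be compared. In kidney WD + CHP, replicate 5 had 3.14 CPM of *Adgre1* (the other 4 had 4.75 to 5.28) and 45.5 CPM of *Csf1r* (60.3 to 64.5), and it was the lowest of its group for 7 of 10 members. In gastrocnemius WD, replicate 4 had 7.81 CPM of *C1qc* (9.48 to 9.97) and 2.38 CPM of *Cd68* (3.15 to 3.29), and it was the lowest of its group for 9 of 10 members. Kidney CD replicate 3 had 0.262 CPM of *Gpnmb* (10 counts, the other 4 had 0.419 to 0.464 CPM), and kidney WD + CHP replicate 2 had 0.219 CPM of *Cd163* (8 counts, 0.433 to 0.496 CPM).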

How the results depend on the processing

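In all 6 comparisons of groups, 0 members were called by edgeR as reported, and most alternatives also gave 0. The count was 1 in gastrocnemius WD vs. CD (*Cd68*) and in gastrocnemius WD + CHP vs. CD (*Gpnmb*) with DESeq2, 1 in kidney WD vs. CD (*C1qb*), gastrocnemius WD vs. CD (*Cd68*) and gastrocnemius WD + CHP vs. CD (*Gpnmb*) at an adjusted p under 0.1, and, with only the 2 groups compared, 2 in kidney WD vs. CD and 1 in gastrocnemius WD + CHP vs. CD. Leaving out each library gave 0 to 1 in both comparisons with CD in either tissue and 0 in WD + CHP vs. WD. Low counts limit *Gpnmb* and *Cd163* in kidney, and the standard errors of the other log2 differences were 0.08 to 0.15 in kidney and 0.18 to 0.23 in gastrocnemius. The causes of these changes were not tested.

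No clear pairing of libraries by replicate number was seen in their correlations, but a shared replicate effect on the members was not tested. In gastrocnemius, replicate 4 was the lowest of its group for 7 (CD), 9 (WD) and 8 (WD + CHP) of 10 members. Same-numbered libraries of different groups correlated at -0.226 to 0.237 in kidney (4 of 15 pairs over 0.1) and -0.219 to 0.224 in gastrocnemius (2 of 15). With the replicate number as a block, the count was 1 in kidney WD vs. CD (*C1qa*, adjusted p = 0.0499), 1 in gastrocnemius WD vs. CD (*Cd68*, 0.0369), 1 in gastrocnemius WD + CHP vs. WD (*Gpnmb*, 0.0365) and 1 in gastrocnemius WD + CHP vs. CD (*Gpnmb*, 0.00579), and with length and GC correction added it was 1 in these 3 comparisons of gastrocnemius. The block turned, in kidney WD vs. CD, *Adgre1* to 0.0015 and *Gpnmb* to -0.018 and, in kidney WD + CHP vs. WD, *Csf1r* to -0.0039 and *Cd163* to -0.0043. The block with length and GC correction turned *Adgre1* to 0.024 and *Gpnmb* to -0.0025 in kidney WD vs. CD, and *C1qb* to 0.0076 and *Cd163* to -0.0098 in kidney WD + CHP vs. WD.

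Other changes of sign, all far from the threshold, were these log2 differences. Length and GC correction alone gave *Adgre1* 0.017 in kidney WD vs. CD, and *C1qb* 0.0096 and *Cd163* -0.0012 in kidney WD + CHP vs. WD. Limma-voom gave *Gpnmb* -0.16 in kidney and -0.0041 in gastrocnemius WD vs. CD, and *Csf1r* -0.0027 and *Cd163* -0.015 in kidney WD + CHP vs. WD. Total counts in place of TMM gave *Gpnmb* -0.0075 in kidney WD vs. CD, and *Csf1r* -0.032 and *Cd163* -0.030 in kidney WD + CHP vs. WD. With the adipocyte score as a covariate, which the groups nearly fix, gastrocnemius WD vs. CD gave *C1qa* -0.45, *C1qb* -0.54, *C1qc* -0.69, *Adgre1* -0.69, *Csf1r* -0.55, *Cd68* -0.75, *Mrc1* -0.89, *Lyz2* -0.89, *Gpnmb* -0.50 and *Cd163* -0.44. WD + CHP vs. WD gave *C1qa* 0.39, *C1qb* 0.42, *C1qc* 0.49, *Adgre1* 0.18, *Csf1r* 0.063, *Cd68* 0.44, *Mrc1* 0.12 and *Lyz2* 0.40. WD + CHP vs. CD gave *C1qa* -0.058, *C1qb* -0.11, *C1qc* -0.20 and *Cd68* -0.31.

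Leaving out each library moved these estimates across 0. In kidney WD vs. CD, *Adgre1* ranged from -0.071 to 0.095 and *Gpnmb* from -0.21 to 0.26. In kidney WD + CHP vs. WD, *C1qb* ranged from -0.11 to 0.013, *Csf1r* from -0.052 to 0.080, *Cd68* from -0.10 to 0.012, *Gpnmb* from -0.14 to 0.33 and *Cd163* from -0.086 to 0.16. In kidney WD + CHP vs. CD, *Mrc1* ranged from -0.11 to 0.084, *Lyz2* from -0.12 to 0.075 and *Gpnmb* from -0.026 to 0.28. In gastrocnemius, *Lyz2* ranged from -0.020 to 0.16 and *Gpnmb* from -0.12 to 0.16 in WD vs. CD, and *Adgre1* from -0.30 to 0.0011 and *Lyz2* from -0.28 to 0.011 in WD + CHP vs. CD. Over the 60 member results, 849 fits with a library left out kept direction and side of the threshold, 7 gained a call and 44 turned sign, and of the fits with another setting 629 kept both, 15 gained a call and 40 turned sign.

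The count over all genes moved too. In kidney WD + CHP vs. WD it was 18 as reported, 174 with DESeq2, 37 without the filter, 70 with the block, 75 at an adjusted p under 0.1, and 0 with length and GC correction or only the 2 groups compared. In gastrocnemius WD + CHP vs. WD it was 63, 270 with DESeq2 and 40 without the filter, and with the adipocyte covariate it was 0. That covariate also took the count in gastrocnemius from 1330 to 0 in WD vs. CD and from 1450 to 293 in WD + CHP vs. CD. In WD vs. CD it was 1652 in kidney and 1330 in gastrocnemius, and 2647 and 2193 at an adjusted p under 0.1. With total counts in place of TMM, 1506 of 1852 called genes were higher in gastrocnemius WD vs. CD, against 720 of 1330 as reported.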
